A study of Mus musculus with 18 samples.

Results

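Chil3, Krt79, Car4, Atp6v0d2 and Cd2 are 5 genes of mouse lung macrophages, and their messenger RNA was followed here through 9 populations of myeloid cells. They were picked by symbol out of the 16176 genes of the deposited table (Chil3 stands there under its older name CHI3L3), because earlier results of these data had put them high in lung macrophages. Their lung levels are therefore a description and were not tested. The cells were sorted from C57BL/6 mice, with 2 libraries per population and 18 in all: macrophages from lung, brain (microglia), peritoneum, splenic red pulp, liver (Kupffer cells), ileum (small intestine) and colon (large intestine), and, as other myeloid cells, bone marrow monocytes and neutrophils. No treatment or mutation is named for any group, ages are not given, and the labels do not say whether 2 libraries of a population came from separate animals, so the p-values measure the spread between libraries, which may be technical. The sample titles place microglia, peritoneal and both intestinal populations in experiment 1, and lung, spleen and Kupffer macrophages, monocytes and neutrophils in experiment 2. Where lung is set against a population of experiment 1, population and experiment cannot be told apart. The label "signature of lung macrophages" describes Krt79, Car4, Atp6v0d2 and Cd2, each highest in lung, the pattern for which they were chosen. It does not describe Chil3, whose highest levels were in neutrophils with the deposited scaling. The part of other lung cells in the lung levels was not tested.

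The resident macrophages of the lung live in the air spaces, where they clear particles and recycle surfactant lipid, and they need the growth factor GM-CSF and the nuclear receptor PPARG to form. Chil3 (Ym1) encodes a secreted lectin of the chitinase family without chitinase activity and is known as a product of mouse alveolar macrophages and of neutrophils. Krt79 encodes a type II keratin, Car4 a carbonic anhydrase tethered to the outer face of the membrane, Atp6v0d2 an isoform of the d subunit of the vacuolar proton pump known from osteoclasts, and Cd2 an adhesion receptor known from T and NK cells that binds CD48.

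The stretches around the annotated transcription starts of Chil3, Krt79 and Car4 are shown because these genes are high in the same cells while their upstream sequences differ in composition. They run from 250 bases before to 50 bases after the start, come from RefSeq on build GRCm38.p6, and read 5′ to 3′ on the gene's own strand; of the 5 genes, these 3 were matched in the table of promoters. Capitals mark matches to 2 of the motifs named below.
Chil3 (chr3:106167515-106167814, minus strand): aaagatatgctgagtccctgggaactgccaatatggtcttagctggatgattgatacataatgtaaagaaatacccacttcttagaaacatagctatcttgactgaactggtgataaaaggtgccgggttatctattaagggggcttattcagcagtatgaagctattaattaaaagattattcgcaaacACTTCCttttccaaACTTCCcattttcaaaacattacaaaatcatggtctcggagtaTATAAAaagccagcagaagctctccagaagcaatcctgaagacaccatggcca
Krt79 (chr15:101940275-101940574, minus strand): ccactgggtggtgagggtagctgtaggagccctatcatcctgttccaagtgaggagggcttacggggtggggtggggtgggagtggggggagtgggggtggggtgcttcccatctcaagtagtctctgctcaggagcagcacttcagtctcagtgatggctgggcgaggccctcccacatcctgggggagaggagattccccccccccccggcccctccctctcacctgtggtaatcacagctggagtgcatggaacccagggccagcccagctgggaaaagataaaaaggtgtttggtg
Car4 (chr11:84957504-84957803, plus strand): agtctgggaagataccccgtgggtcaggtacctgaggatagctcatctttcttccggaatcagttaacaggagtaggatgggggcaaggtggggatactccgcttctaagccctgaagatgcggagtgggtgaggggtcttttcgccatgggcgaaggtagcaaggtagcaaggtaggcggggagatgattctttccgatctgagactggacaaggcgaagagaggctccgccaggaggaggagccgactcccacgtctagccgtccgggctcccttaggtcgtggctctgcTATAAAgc
The GC content was 38.7% for Chil3, 62.0% for Krt79 and 57.3% for Car4, against a median of 52.7% over 32851 promoters of 300 bases. Motifs were searched on both strands as exact letters. GGAAGT, a core bound by ETS factors such as PU.1, occurred in 23.77% of all promoters; Chil3 held 2 copies, both on the opposite strand (printed as ACTTCC) with first bases at positions -60 and -46, and Krt79 and Car4 held none. TATAAA, the TATA box, occurred in 13.62% of all promoters and lay at position -3 in Chil3 and 43 bases into the transcript in Car4. The AP-1 motif TGANTCA (7.808% of promoters), the C/EBP motif TTGCNNAA (10.8%), the E-box CACGTG (7.15%) and the nuclear receptor half-site AGGTCA (16.26%) had no match in any of the 3 windows. No printed match overlaps another, and a match is a run of letters, not a binding site.

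Values below are the deposited normalised reads: read counts per transcript that the authors divided by a factor for each library. Chil3 had 4672 and 8072 normalised reads in the lung libraries (6372 ± 2404, SD, n = 2), against 11900 and 11520 in neutrophils (11710 ± 266) and 932 and 625 in monocytes (779 ± 217). These levels rest on 14684 reads in lung, 13877 in neutrophils and 1908 in monocytes. In the other macrophages Chil3 had 35.2 and 69.9 normalised reads in spleen, 56.6 and 31.1 in the large intestine, 22.2 and 30.2 in the small intestine, and 39.0 and 0 in Kupffer cells. Both libraries of microglia and of peritoneal macrophages were at 0.
The lung libraries thus lay below both neutrophil libraries and above all others, and the 2 lung libraries differed from each other by a factor of 1.73. The difference between lung and neutrophils, in mean log2 values, was -0.93 with the deposited scaling. It was -0.09 when all libraries were scaled to equal totals and 0.61, with lung the higher, after quantile normalization, so the order of lung and neutrophils depends on the scaling. The deposited columns of neutrophils summed to 1818206 and 1883301 normalised reads, and those of the other 8 populations to 938759 to 1215278. As a share of all reads in genes, Chil3 took 0.541% and 0.928% in lung and 0.780% and 0.729% in neutrophils, which overlap.
Against the monocytes, which follow in the order, lung was 8.18-fold higher (counting interval 7.80 to 8.59), and against spleen, the highest of the other macrophages, 121-fold (97.8 to 152). Against microglia it was at least 2276-fold and against peritoneal macrophages at least 1964-fold higher, taking 3 reads per library as the floor for a value of 0. These intervals are exact Clopper-Pearson intervals at 95% on summed reads. They cover counting error only, since amplified reads are not independent molecules.

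Krt79 was close to exclusive to lung at this depth. It had 849 and 795 normalised reads in lung (822 ± 38.3, SD, n = 2), against 1.99 and 2.92 in spleen, 4.13 and 0 in neutrophils, 0 and 2.66 in the small intestine, 0 and 1.53 in monocytes, and 0 and 1.16 in the large intestine. Microglia, peritoneal macrophages and Kupffer cells were at 0 in both libraries. Every population other than lung thus held 4 reads or fewer over its libraries, and none of the neighbours below lung in the order were apart from each other. Spleen came second by mean log2 value with 4 reads in all; lung was 334-fold higher, with a counting interval of 130 to 1229. Lung held 99.1% of the Krt79 summed over the 9 population means.

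Car4 had 547 and 510 normalised reads in lung (529 ± 26.2), against 14.6 and 12.6 in macrophages of the small intestine (13.6 ± 1.41), the second-highest population. The others were lower: 12.4 and 6.59 in neutrophils, 8.97 and 4.38 in spleen, 3.54 and 7.56 in the large intestine, 5.12 and 3.07 in monocytes, and 7.28 and 0 in Kupffer cells. Microglia and peritoneal macrophages were again at 0. Lung was 38.9-fold higher than the small intestine (28.9 to 53.6), whose libraries were in turn above both neutrophil libraries, while all neighbours further down overlapped.

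Atp6v0d2 had 828 and 622 normalised reads in lung (725 ± 145), against 2.36 and 4.65 in macrophages of the large intestine, the second-highest population by mean log2 value. Monocytes had 2.56 and 2.30, the small intestine 4.49 and 0.664, Kupffer cells 5.20 and 0, spleen 2.99 and 0, neutrophils 2.76 and 0, and microglia and peritoneal macrophages 0. Below lung all neighbours overlapped, so the second place is not a difference: lung was 207-fold above the large intestine (112 to 432, on 10 reads there) and 298-fold above monocytes (137 to 814, on 6 reads).

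Cd2 was the most even of the 5 within lung, with 660 and 671 normalised reads (665 ± 7.70). It had 26.9 and 23.4 in spleen (25.1 ± 2.50), the second-highest population, and 26.2 and 17.6 in neutrophils. In 2 populations the libraries were far apart: Kupffer cells had 2.08 and 31.3, and the large intestine 1.18 and 30.2. The small intestine had 2.25 and 8.63, monocytes 5.97 and 0.767, peritoneal macrophages 0 and 2.71, and microglia 0.940 and 0. Lung was 26.5-fold above spleen (19.6 to 36.7), and its lower library was 21.1 times the highest library of any other population, which was the second Kupffer library. All neighbours below lung overlapped.

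**Figure D1:**
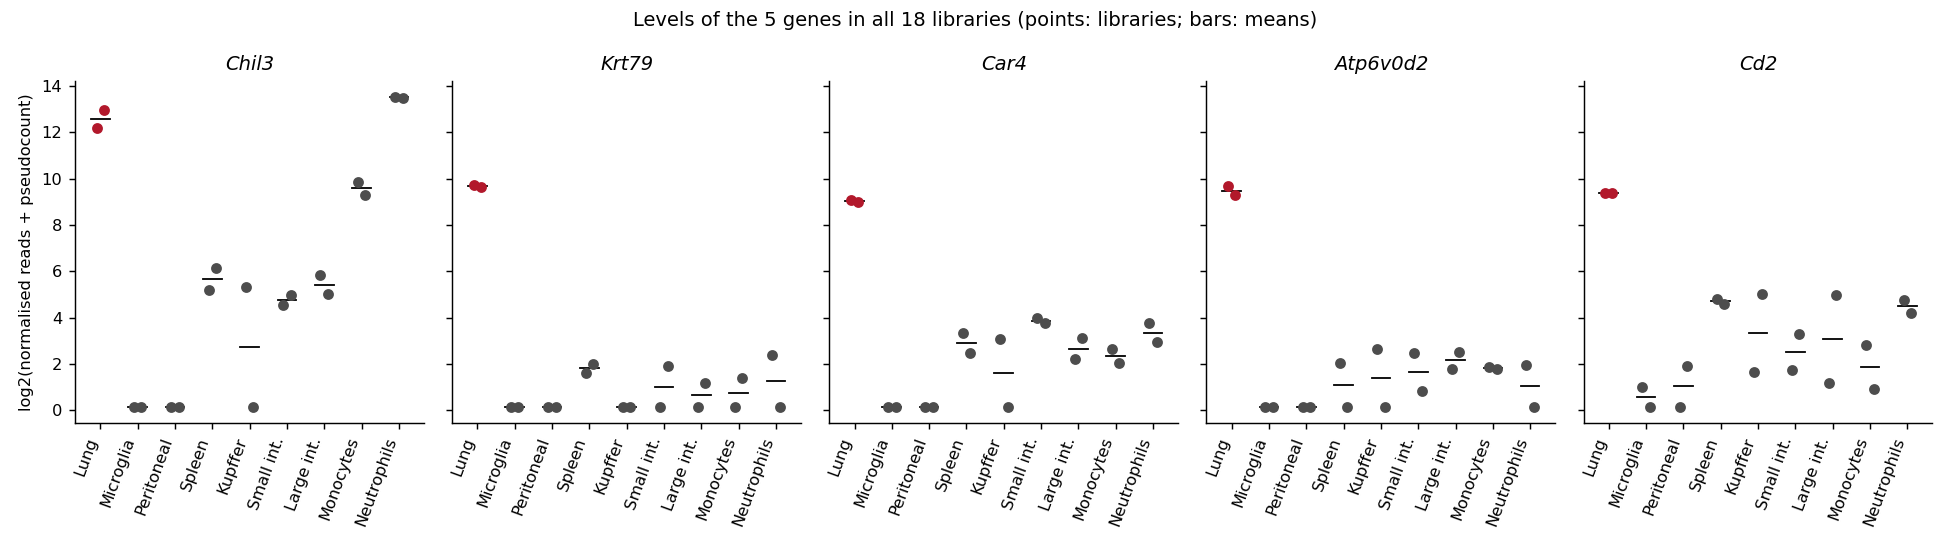
log2(normalised reads + pseudocount of 1.11) of the 5 genes in all 18 libraries, with 1 panel per gene and lung at the left; points are libraries and bars are means of 2. Both lung libraries lie above all 16 others for Krt79, Car4, Atp6v0d2 and Cd2, and, with the deposited scaling shown here, below both neutrophil libraries for Chil3.

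**Figure D2:**
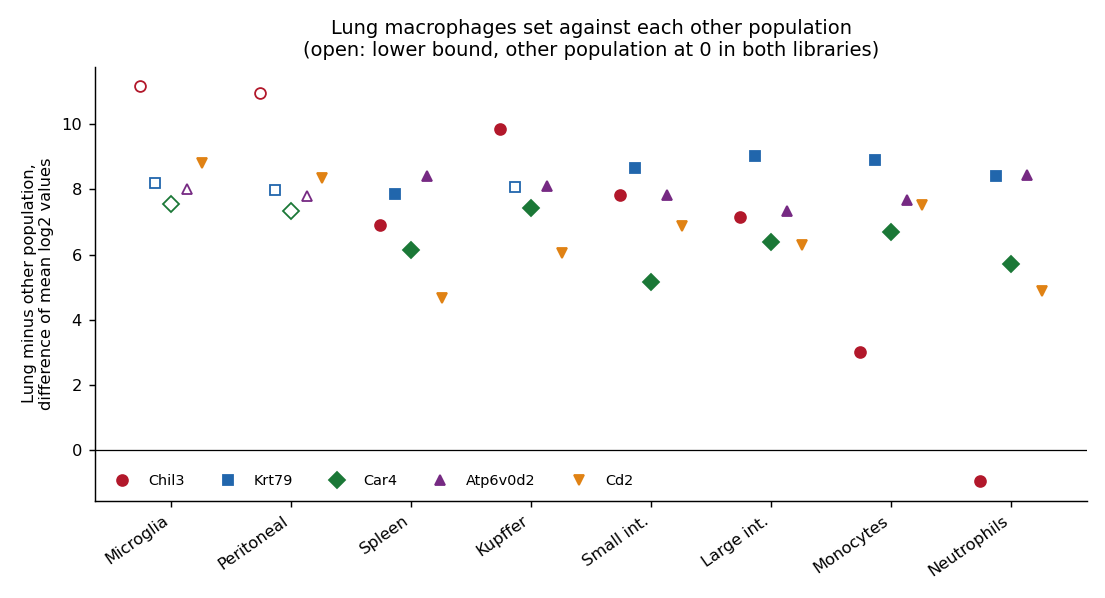
Difference of mean log2 values, lung minus each of the other 8 populations, for the 5 genes; open symbols are lower bounds, drawn at log2 of lung over a floor of 3 reads per library where the other population was at 0. With the deposited scaling Chil3 alone lies below 0, at -0.93 against neutrophils, and it is at 3.01 against monocytes; the smallest differences of the others are 7.86 for Krt79 and 4.67 for Cd2 against spleen, 5.17 for Car4 against small intestine and 7.33 for Atp6v0d2 against large intestine.

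Set beside all 11986 genes that passed the filter on low values (5.53 or more normalised reads in at least 2 libraries), the genes were ordered by the log2 difference between lung and the highest of the other 6 macrophage populations. Krt79 came first and Atp6v0d2 second, and Chil3 was at rank 5 with 6.92, Car4 at rank 16 and Cd2 at rank 19; 31 genes reached 4. When monocytes and neutrophils also counted, Krt79 and Atp6v0d2 kept ranks 1 and 2, Car4 and Cd2 moved to ranks 11 and 13, and Chil3 dropped to rank 4516. The other genes among the first 10 of the first order were Cidec (7.31), a lipid droplet protein, Plet1 (7.00), the surfactant protein gene Sftpc (6.80), the zinc transporter Slc39a2 (6.61), the sodium-proton exchanger Slc9a4 (6.56), the protease Ctsk (6.53) and Cpne5 (6.15). These ranks describe the pattern for which the genes were chosen. Without the lung libraries, Chil3 reached the filter in 11 of 16 libraries, Cd2 in 8 and Car4 in 7, while Krt79 and Atp6v0d2 reached it in none and were tested only because of lung.

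**Figure D3:**
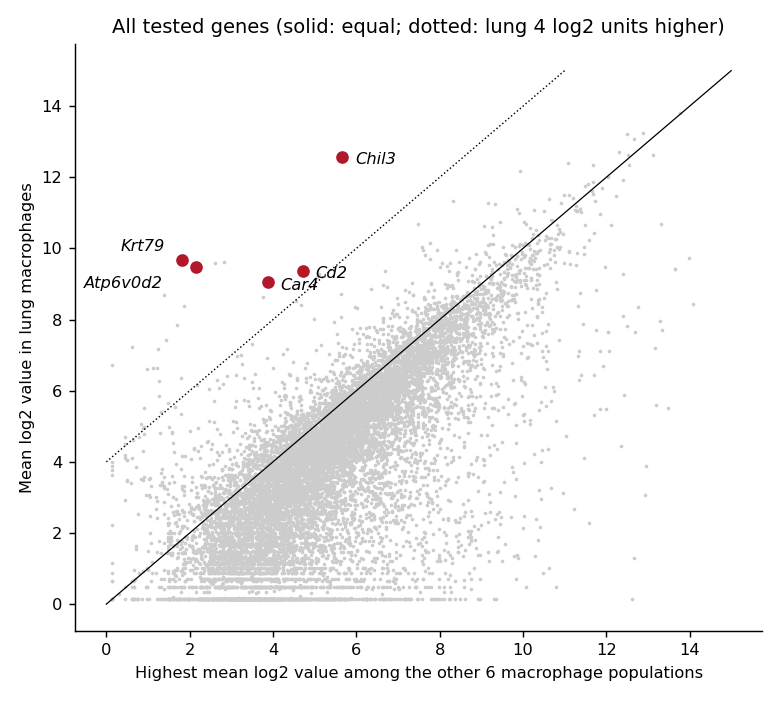
Mean log2 value in lung macrophages against the highest mean log2 value among the other 6 macrophage populations for 11986 genes (grey), with the 5 genes in red. The solid line marks equal values and the dotted line a lung value 4 log2 units higher; all 5 genes lie above the dotted line.

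What the choice of the genes did not use is how they vary among the 8 populations other than lung. Each population was compared with the mean of the other 7 by limma, with Benjamini-Hochberg adjustment over all tested genes; a change was called at adjusted p under 0.05 and at least 2-fold. Of the 24 tests of Chil3, Car4 and Cd2, 9 gave a call, 5 of them for Chil3; over all genes and these 8 populations, 19.3% of tests gave one. Krt79 and Atp6v0d2 are not counted here, since they passed the filter through lung alone. Chil3 rose in neutrophils (log2 fold change 9.45 ± 0.71, SE; limma adjusted p = 5.57e-09; 15.7% of all tested genes were called higher there) and in monocytes (4.95 ± 0.71, limma adjusted p = 6.88e-05, against a background of 6.44%). Within experiment 2, where only spleen, Kupffer cells and neutrophils were left to compare with, the monocyte difference was 2.27 with limma adjusted p = 0.0916 and did not pass. Spleen was called lower there (-2.94, limma adjusted p = 0.0314). Within experiment 1, whose other populations include the microglia and peritoneal macrophages, Chil3 was called higher in the small intestine (2.85, limma adjusted p = 0.00651) and the large intestine (3.75, limma adjusted p = 0.00123). Chil3 fell in microglia (limma adjusted p = 4.38e-06, background 15.0%) and in peritoneal macrophages (limma adjusted p = 7.46e-06, background 12.3%), where it was listed at 0. It also fell in Kupffer cells by 2.87 on the log2 scale (limma adjusted p = 0.00951, background 5.35%), but that call rests on the second Kupffer library: without it the change was -0.28 with limma adjusted p = 0.716.

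Car4 fell in microglia (limma adjusted p = 0.00921) and in peritoneal macrophages (limma adjusted p = 0.0137), where no read was listed. Leaving out either library of the population ended each call at the same change of -2.27, with limma adjusted p = 0.0765 and 0.0804 in microglia and 0.104 and 0.0908 in peritoneal macrophages. In macrophages of the small intestine it rose by 2.00 ± 0.62 on the log2 scale (limma adjusted p = 0.0446, against 7.62% of genes called higher); this call held under 10 of 26 alternative settings, with limma adjusted p between 0.00493 and 0.31. The Cd2 call, lower in microglia (-2.42 ± 0.86, limma adjusted p = 0.0381), held under 14 of 26, with limma adjusted p between 0.0116 and 0.264. The higher Cd2 of spleen (2.29 ± 0.86, limma adjusted p = 0.0679) and of neutrophils (2.05 ± 0.86, limma adjusted p = 0.0625) did not pass. Krt79 and Atp6v0d2 gave no call in any of the 8 populations; they had at most 4.13 and 5.20 normalised reads in these libraries, too few to show a difference at this depth.
Among the 28 pairs of populations other than lung, Chil3 was called in 19, Car4 in 8, Cd2 in 4, and Krt79 and Atp6v0d2 in 0, against 22.1% of all gene and pair combinations. The Chil3 difference of monocytes minus neutrophils was -3.94 ± 0.94 (log2; limma adjusted p = 0.00455; 11.3% of genes were called lower in monocytes).

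The populations were checked against markers of other cell types, because bulk RNA of sorted cells can hold RNA of others, and because fewer cells of a type and less RNA per cell cannot be told apart. Against the mean of the other 6 macrophage populations, 8.31% of all tested genes were called higher in lung and 10.0% lower. A marker that met the filter through lung alone could not be called lower there. The lung population carried genes of alveolar macrophages. Siglecf had 197 and 229 normalised reads in lung, against a mean of 59.2 in microglia, the highest of the others. Marco, Itgax and Pparg were as high or nearly so in another population: Marco had 527 and 854 in lung (mean 690) against a mean of 978 in Kupffer cells, Itgax 282 and 305 (mean 293) against 294 in the large intestine, and Pparg 167 and 112 (mean 139) against 137 in spleen. Of 9 genes shared by most macrophages, 0 rose and 7 fell in lung against the mean of the other 6 macrophage populations, among them Csf1r, with 332 in lung against 1671 to 6981 in the others, and the complement genes C1qa, C1qb and C1qc, while Mertk (441) and Cd68 (607) did not pass. Of 3 tested eosinophil markers 1 rose, Siglecf, which is also among the alveolar macrophage genes, and 0 fell. Of 5 tested dendritic cell markers, the chemokine receptor gene Ccr7 rose (2.64 ± 0.73, limma adjusted p = 0.0137) and Cd209a fell (-2.65 ± 0.69, limma adjusted p = 0.0098). The Ccr7 call was lost without the second lung library, within experiment 2, with the pseudocount at 0.25 times and with the replicate number as a block. The Cd209a call was lost without either lung library and with that block.

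Chil3 is also a neutrophil gene, and in the 16 libraries other than lung it varied with the summed neutrophil markers (r = 0.85 on the log2 scale, a description over libraries that share populations). The 14 measured markers summed to 1948 and 4033 normalised reads in lung, against 271100 and 333400 in neutrophils, 3151 to 3326 in monocytes and 1949 to 3513 in spleen. In lung, 9 of the 14 rose against the other 6 macrophage populations, 1 fell and 4 did not pass; against spleen and Kupffer cells alone, the macrophages of the same experiment, 0 rose. Chil3 amounted to 240% and 200% of this sum in lung, against 4.39% and 3.46% in neutrophils, 28.02% and 19.84% in monocytes and 1.81% and 1.99% in spleen. Of the 2 lung libraries, the one with more Chil3 also had the larger neutrophil sum. The part of neutrophil RNA in the lung Chil3 level was not tested.

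Krt79 stands beside lung epithelium: 8 of 10 tested epithelial markers rose in lung and 0 fell. With either lung library left out only 6 were left to test, and fewer rose. The markers lost from the test had met the filter only with the help of lung, so the counts above were in part fixed by the filter. Scgb1a1, among them, had 87.2 and 6.64 normalised reads in lung and at most 0.562 elsewhere. It met the filter through lung alone and could not have fallen. The 13 measured markers summed to 1237 and 1369 normalised reads in lung, against 39.2 to 328 in the other populations. Sftpc, the surfactant protein gene of type II cells, made up 738 and 846 of these. Across the 2 lung libraries the epithelial sum was higher in the second and Krt79 in the first. In the 16 other libraries, r of Krt79 with this sum was 0.07, at levels of a few reads. The part of epithelial RNA in the Krt79 level was not tested.

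Car4 is known from lung capillaries too, and 3 of 10 tested endothelial markers rose in lung (1 without the first lung library, and 1 within experiment 2). The 11 markers summed to 385 and 231 normalised reads in lung, while Car4 was at 547 and 510; in Kupffer cells the sum was 332 and 476 with Car4 at 7.28 and 0. Cldn5, a junction gene of endothelium, had 193 and 69.7 in lung, and Cdh5 4.43 and 7.75. In the 16 libraries other than lung, r of Car4 with the endothelial sum was -0.07. The endothelial part of Car4 was not tested.

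Cd2 stands beside lymphocytes: 7 of 14 tested T and NK markers rose in lung and 0 fell, but 2 without the second lung library and 1 within experiment 2; 0 of 7 B cell markers were called. The T and NK sum was 124 and 292 normalised reads in the lung libraries and Cd2 was 660 and 671, which amounted to 533% and 230% of the sum. In spleen it was 25.2% and 18.2%, in neutrophils 20.99% and 25%, and elsewhere at most 41.2%. The second Kupffer library, with 31.3 of Cd2 against 2.08 in the first, also had the larger sum (119 against 50.9). In the 16 libraries other than lung, r with the T and NK sum was 0.60, with the B cell sum 0.29 and with the neutrophil sum 0.42. Among T cell genes, Cd3e had 5.69 and 4.43 in lung, Cd3d 5.06 and 22.1, Cd3g 3.79 and 16.6, and Lck 10.8 and 42.1. The part of lymphocyte RNA in the lung Cd2 level was not tested.

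**Figure D4:**
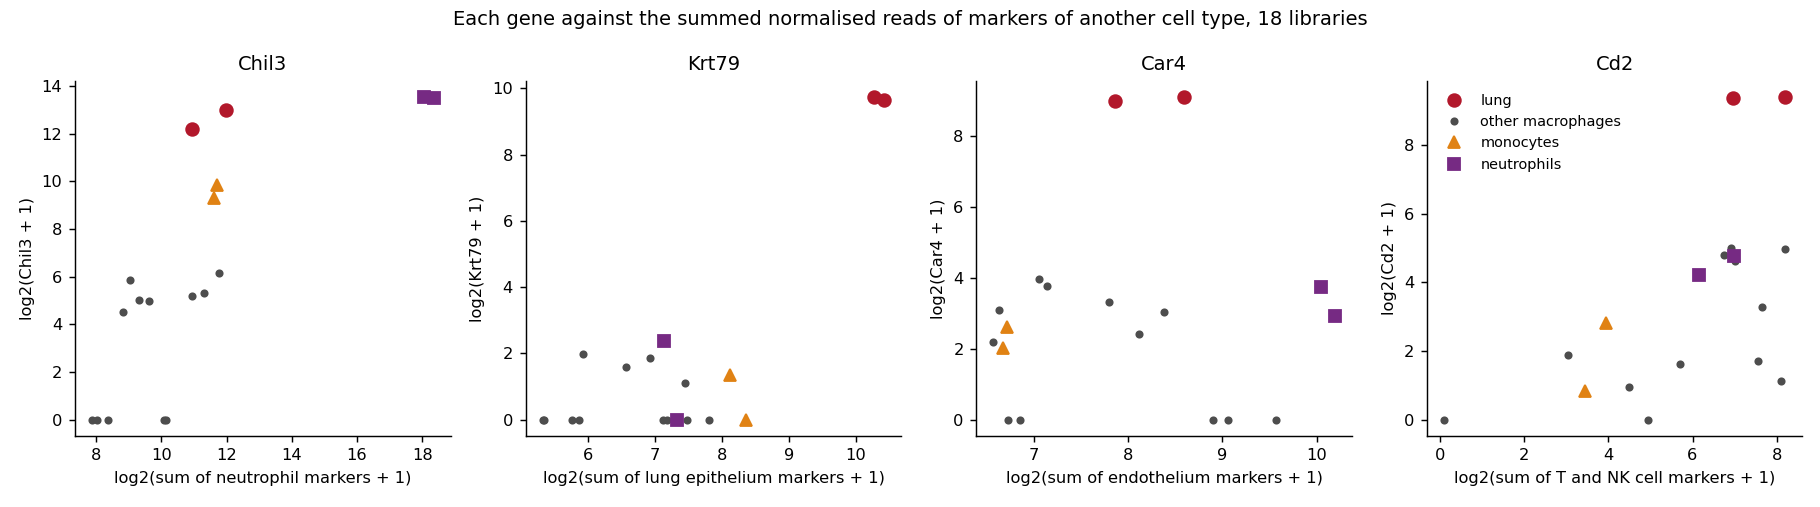
Each of 4 genes against the summed normalised reads of markers of another cell type, both as log2(value + 1), in 18 libraries: lung in red, the other macrophages in grey, monocytes in orange and neutrophils in purple. The lung points of Chil3, Car4 and Cd2 stand above libraries with a like marker sum, whereas for Krt79 lung is highest on both axes.

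The families of the 5 genes were read in the lung contrast, lung against the mean of the other 6 macrophage populations, in which 996 genes (8.31%) were called higher and 1201 (10.0%) lower, with a median log2 change of -0.07 over all tested genes. None of these lists holds one of the 5 genes. In the chitinase family, 2 of 5 tested genes rose, 0 fell, and the median was 0.26. Chil1, a related lectin, rose by 4.40 ± 0.49 (limma adjusted p = 2.14e-06), with 37.3 and 90.8 normalised reads in lung, but its highest mean was 2986 in neutrophils. Chil4 (Ym2), a near-identical copy of Chil3, rose by 4.70 ± 0.47 (limma adjusted p = 5.36e-07). Its reads were 0.474% and 0.506% of those of Chil3 in lung, 0.529% and 0.483% in neutrophils and 0.488% and 0.491% in monocytes; the sources do not say how reads matching both copies were counted, so its value is uncertain. The acidic chitinase Chia1 had 3.16 and 8.86 in lung and 0 in all other population means, and was too low to be tested.

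Among keratins, 2 of 8 tested genes rose, 1 fell and the median was 0.41. Krt19, which lacks the usual keratin tail, rose by 5.14 ± 0.64 (limma adjusted p = 8.46e-06), with 2063 and 2286 in lung against 1324 and 1141 in the large intestine, the highest of the others. Krt78, the other that rose, was 3.75 higher on the log2 scale on 14 and 19 reads in lung, with none elsewhere. It met the filter through lung alone and could not have fallen, so its call is a description and not a test. Krt8, a keratin of simple epithelia with 19.6 and 0 normalised reads in lung, fell (-2.74 ± 0.75, limma adjusted p = 0.0136), which rests on the second lung library, at 0: without it the change was -0.63 with limma adjusted p = 0.704. Krt18, its usual partner, was at -2.11 (limma adjusted p = 0.0624). Krt8 was highest in the large intestine, with 703 and 699.

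The other carbonic anhydrases did not follow Car4. Of 9 tested, 1 rose and 2 fell, with a median of -0.70. The mitochondrial Car5a rose by 2.76 ± 0.69 (limma adjusted p = 0.0072) at a mean of 8.77 in lung and 13 in Kupffer cells, and without the second lung library its limma adjusted p was 0.113. Cytosolic Car2, at 8.14 in lung against 501 in spleen and 293 in the large intestine, fell by 1.54 ± 0.46 (limma adjusted p = 0.0212), and without the second lung library its limma adjusted p was 0.0816. Car1 fell with limma adjusted p = 0.049, a call lost under 17 of 26 alternatives.

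The subunits of the proton pump did not follow Atp6v0d2 in size: of 18 tested, 3 rose, 1 fell and 14 did not pass, and the median was 0.55. Atp6v1e1 rose by 1.41 ± 0.25 (limma adjusted p = 0.000369), Atp6v1c1 by 1.21 ± 0.28 (limma adjusted p = 0.00394) and Atp6v1b2 by 1.02 ± 0.26 (limma adjusted p = 0.00932). Atp6v1b2 was under 1 with either other scaling (0.99 and 0.98). Within experiment 2, Atp6v1e1 was at 0.85 (limma adjusted p = 0.0633) and Atp6v1b2 at 0.71 (limma adjusted p = 0.112), and neither passed. The calls held in 25 of 26 alternatives for Atp6v1e1 and for Atp6v1c1, and in 17 for Atp6v1b2. Atp6v0a2 fell (-1.96 ± 0.61, limma adjusted p = 0.0289), and without the second lung library it was at -0.16. The ubiquitous isoform of the same subunit, Atp6v0d1, had 380 and 304 normalised reads in lung; its mean of 342 stood against 145 to 217 in the other 6 macrophage populations, a log2 difference of 0.96 ± 0.19 (limma adjusted p = 0.000946) just short of the 2-fold limit.

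Atp6v0d2 is known from osteoclasts, where it takes part in cell fusion and acid secretion. Of 9 tested genes of osteoclasts and fusion, 3 rose, 1 fell, and the median was 0.37; without the second lung library, and also within experiment 2, 1 rose. Ctsk, the collagen-degrading cathepsin, rose by 7.27 ± 0.68 (limma adjusted p = 2.96e-07). Acp5, tartrate-resistant phosphatase, rose by 1.62 ± 0.39 (limma adjusted p = 0.00592), but its mean of 374 in lung was below the 582 to 840 of spleen, Kupffer and both gut populations, and within experiment 2 the change was -0.85 with limma adjusted p = 0.0216. Mmp9 rose by 1.09 ± 0.35 (limma adjusted p = 0.0342), and without the second lung library the change was 0.49 with limma adjusted p = 0.589. The fusion gene Ocstamp was at 0 in both lung libraries and fell (limma adjusted p = 0.00255), with means of 83.8 and 113 in the small and large intestine. Nfatc1, the osteoclast regulator, was at 0.37 and did not pass (limma adjusted p = 0.526).

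Of 12 genes around CD2 (its ligand, the related SLAM receptors and its adaptors), 1 rose, 2 fell and 9 did not pass, with a median of -0.59. Cd48, the ligand, had 33.5 and 44.3 normalised reads in lung and a log2 difference of -0.13 (limma adjusted p = 0.887). Slamf9 rose by 1.44 ± 0.33 (limma adjusted p = 0.00419), and without the first lung library its limma adjusted p was 0.107. Slamf8 fell by 3.94 ± 0.53 on the log2 scale (limma adjusted p = 2e-05), and the adaptor gene Cd2ap fell by 1.92 ± 0.40 (limma adjusted p = 0.00172).

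The wider programme of alveolar macrophages rose with the 5 genes: of 30 further genes known from these cells, 29 rose, 0 fell, and the median was 5.10. This list was drawn up with earlier results of these data known and is not independent evidence. Plet1 rose by 8.18 ± 0.60, Cidec by 8.17 ± 0.62, Ctsk by 7.27 ± 0.68, coagulation factor F7 by 7.10 ± 0.76 and the ribonuclease Ear1 by 6.60 ± 0.44 (limma adjusted p at most 1.28e-06). Slc39a2 was 7.00 higher, but it met the filter through lung alone and could not have fallen. The same was true of Mcoln3, Flvcr2, Ffar4 and Trim29, whose population means outside lung were at most 2.93. The count of 29 thus holds genes whose direction the filter fixed. Without the second lung library 23 of the 26 still tested rose. The 1 gene that did not pass was Csf2ra, the GM-CSF receptor chain that binds the ligand (0.86 ± 0.20, limma adjusted p = 0.00479, under 2-fold).
Of 17 genes of the GM-CSF and PPARG axis, 9 rose, 0 fell, and the median was 1.05. Fewer rose without the second lung library, and within experiment 2, against spleen and Kupffer cells alone, 1 fell. Csf2ra, Csf2rb, Pparg, Fabp4 and Bhlhe41 are on both this list and the alveolar list, so the counts of both lists are not separate results. The signalling chain Csf2rb rose by 2.88 ± 0.37 (limma adjusted p = 1.11e-05) and Cish, a feedback gene of STAT5, by 4.27 ± 0.66 (limma adjusted p = 9.48e-05). Pparg rose by 4.11 ± 0.55 (limma adjusted p = 1.76e-05), but its mean was 139 in lung and 137 in spleen, and within experiment 2 its limma adjusted p was 0.0672. Its target Fabp4 rose by 3.95 ± 0.52 (limma adjusted p = 1.63e-05), with means of 170 in lung and 261 in peritoneal macrophages. Cebpb rose by 2.73 ± 0.30 (limma adjusted p = 1.73e-06). Bhlhe41 rose by 2.91 ± 0.65 (limma adjusted p = 0.00328), with a mean of 77.8 in lung and 227 in microglia, and its limma adjusted p was 0.176 without the second lung library. Spi1, which encodes PU.1, was at 0.76 ± 0.20 and under 2-fold.

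**Figure D5:**
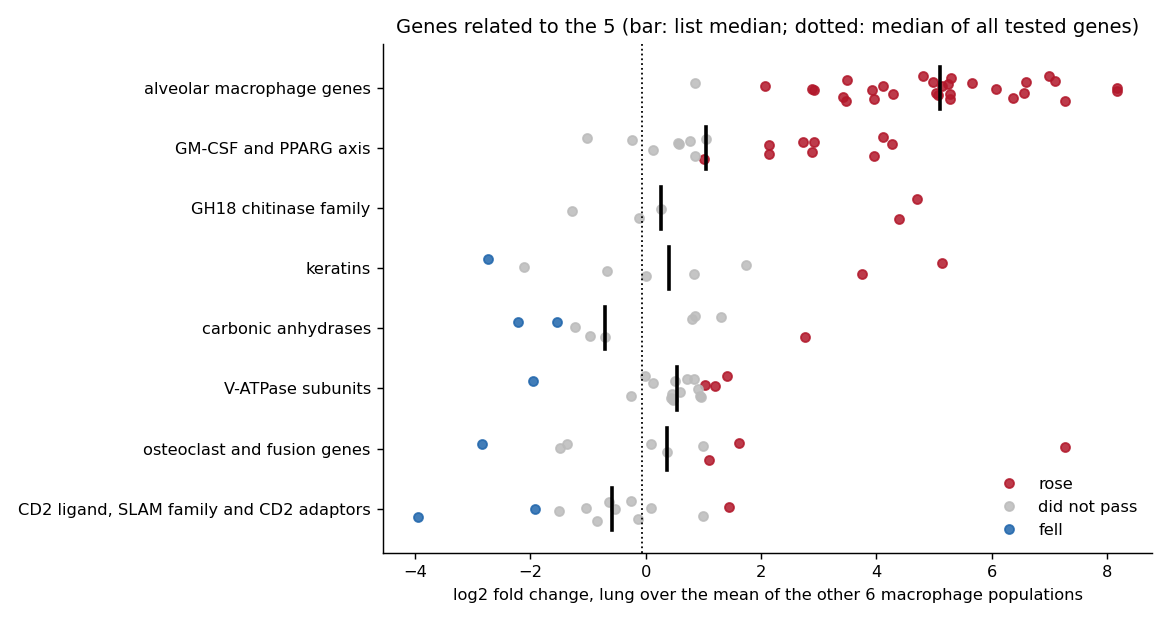
log2 fold change of lung over the mean of the other 6 macrophage populations for the tested genes of 8 lists related to the 5 genes (red rose, blue fell, grey did not pass); bars are list medians and the dotted line is the median of all tested genes, -0.07. The alveolar list centres on 5.10, and the families of the 5 genes centre between -0.70 (carbonic anhydrases) and 0.55 (proton pump), with single genes such as Krt19 and Ctsk far to the right.

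The genes most like each of the 5 were sought by Pearson's r of log2 values among all tested genes; libraries of a population are not independent points, and r here mostly measures a shared height in lung. Over 18 libraries, Krt79 was closest to Slc9a4 (r = 0.964), Wfdc10 (0.962), the chemokine Cxcl15 (0.958) and Slc39a2 (0.956). Atp6v0d2 was closest to Mtmr7 (0.959), Pnpla5 (0.946), the lysosomal channel gene Mcoln3 (0.941) and Slc9a4 (0.939), and Car4 to Plet1 (0.960), Cpne5 (0.926), Ctsk (0.909) and Bcar3 (0.900). Cd2 followed with Ear10 (0.885), Nceh1 (0.878), Ear1 (0.859) and Spp1 (0.857). The nearest of Chil3 were of another kind, Mical1 (0.955), Serf2 (0.954), Tuba4a (0.941) and Capns1 (0.941), whose means in lung (224, 657, 266 and 793) were below their highest means elsewhere (248, 1095, 896 and 1090).
Among the 5 genes, r was 0.893 to 0.927 between Krt79, Car4 and Atp6v0d2, 0.764 to 0.845 between Cd2 and these, and 0.569 to 0.741 between Chil3 and the others. Over the 16 libraries without lung, the nearest of Chil3 were Ly6c1 (0.972), Oaz1-ps (0.964), the leukotriene receptor Ltb4r1 (0.963) and Tuba4a (0.957), and r between Krt79 and Atp6v0d2 was 0.196, at levels of a few reads.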

How the data were processed

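The deposited values are a signal for each RefSeq transcript in each library: read counts that the authors divided by a factor of the library. Alignment was to mm9 with TopHat, per the submitters' processing notes; the sources used here give neither its version nor the counter nor how the factor was found. Within a library 86.1% to 88.3% of values above 0 were whole multiples of a step (tolerance 0.01 read), taken as the worth of 1 read, so the signal is not whole counts and no count model was used. Libraries held 588079 to 1578866 reads in genes. Of 20814 transcripts, 20372 (97.9%) matched current symbols; the transcript with the highest mean stood for each of 16176 genes, and 45 transcripts without a symbol were left out. Gene positions of the alignment are not given; promoters carry their own build.

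log2(value + 1.11) was fitted with limma 3.58.1 (R 4.3.3; trend; 9 populations; 9 residual degrees of freedom; two-sided tests) for genes at 5.53 or more in 2 libraries. Fold changes understate the change of low genes, and a fit was checked on simulated data. Other work used Python 3.11.15, numpy 2.4.6, pandas 2.3.3, scipy 1.17.1 and matplotlib 3.10.9. The rule for named genes takes up to 6 called genes of each list, by size of change, and up to 3 that were not called, and for likeness the 4 genes with the highest r. The 5 genes and the 16 lists were chosen with earlier results of these data known, and which of the nameable genes the text names was chosen after their values were seen. The alternatives were other pseudocounts, filters and scalings, each library left out, the replicate number as a block, and populations of 1 experiment alone.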

Additional observations from a re-analysis of the deposited data

How the results depend on the processing

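Apart from Chil3, the lung excess over the second-highest population kept its sign under all alternatives run. With the pseudocount at 0.25 times, Krt79 was at 8.25; at 4 times, Krt79 was at 6.91, Car4 at 4.89, Atp6v0d2 at 6.52 and Cd2 at 4.50. Car4 was at 5.34 after quantile normalization. Chil3 turned to 0.61 after quantile normalization and was at -0.09 with equal totals. The replicate numbers of the titles did not pair the libraries (r of deviations -0.04 to 0.05 over the 28 pairs of populations that share a number, 6 of them with lung); with the replicate block, Car4 was at 5.33, Atp6v0d2 at 6.63 and Cd2 at 4.37, and 627 genes rose and 785 fell in lung, where the fit keeps 4 residual degrees of freedom. Within experiment 2, where neutrophils and monocytes were not set against lung, Chil3 was at 6.92 (spleen), Car4 at 6.15 and Atp6v0d2 at 8.09, and Acp5 turned to -0.85 in the lung contrast. Leaving out 1 library at a time gave -1.33 to -0.54 for Chil3, 7.29 to 8.05 for Krt79, 5.08 to 5.27 for Car4, 6.83 to 7.67 for Atp6v0d2 and 4.36 to 4.77 for Cd2, 543 to 1082 genes higher and 546 to 1291 lower in lung (both lowest without the second lung library), and 6 to 10 calls of the 5 genes outside lung. In the main fit, the 5 genes gave 9 such calls in 40 tests, against 19.3% of tests over all genes. Those 40 tests include Krt79 and Atp6v0d2, which passed the filter through lung alone and gave no call. The share over all genes is given here for the main fit only. The second-highest population was the same in 25 of 25 alternatives with all populations for Chil3, 24 for Car4, 23 for Krt79, 21 for Cd2 and 20 for Atp6v0d2. The Chil3 calls in neutrophils, microglia and peritoneal macrophages held in 26 of 26. Causes were not tested. Counts of a few reads limit the order below lung for Krt79 and Atp6v0d2.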
